A study of Homo sapiens with 9 samples.

Results

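The collagen hydroxylases and lysyl oxidases are the enzymes that modify collagen chains before and after secretion. The members were 10 genes chosen by symbol in the count table, which lists 60683 genes. They were the prolyl 4-hydroxylase genes P4HA1, P4HA2 and P4HB, the lysyl hydroxylase genes PLOD1, PLOD2 and PLOD3, and the lysyl oxidase genes LOX, LOXL1, LOXL2 and LOXL4. All 10 had enough counts to be tested, among 22672 genes tested in all. RNA was sequenced from Hep3B cells, an established human liver cancer line, 24 hours after treatment in 3 groups of 3 biological replicates. Cells in the first group received the vehicle DMSO at 20% O2, those in the second received vehicle at 1% O2, and those in the third received 32-134D at 1% O2. 32-134D is an inhibitor of hypoxia-inducible factors (HIFs). The labels state no dose for it, and no group combined 32-134D with 20% O2.

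Prolyl 4-hydroxylases convert proline to hydroxyproline in the endoplasmic reticulum, which lets collagen chains form a stable triple helix. Lysyl hydroxylases modify lysine in the same compartment, and lysyl oxidases, copper-dependent enzymes outside the cell, turn lysine and hydroxylysine into the aldehydes from which cross-links form. Both kinds of hydroxylase need oxygen, iron and ascorbate, and several members are known HIF targets.

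HIFs bind DNA at the core letters ACGTG or GCGTG, so the bases upstream of the gene starts were searched for either core on both strands. In the RefSeq promoter table (GRCh38.p14), which spans 250 bases before and 50 after a gene start, 9 of the 10 members had an entry, LOXL2 being the exception. Of 35116 windows in that table, 48.4% held at least 1 core of either kind, 21.4% held ACGTG, 8.82% held ACGTG at least 2 times and 1.98% at least 3 times. The windows of P4HA1, PLOD2 and LOX held ACGTG, and their sequences are shown because each is from a member of a different family that rose at 1% O2. Capitals mark the cores, read as ACGTG or GCGTG on the printed strand and as CACGT or CACGC on the other. All 3 genes are on the minus strand, and the sequences read in the direction of the gene. For PLOD2 the whole stretch before the start is shown, none of which lies in an exon of the gene in GENCODE 29. For P4HA1 and LOX, whose windows partly lie in such exons, only the bases around each core are shown. The P4HA1 stretch and the last LOX stretch lie wholly in an annotated exon of the gene, and 11 bases of the middle LOX stretch do.
P4HA1, chr10:73096936-73096965: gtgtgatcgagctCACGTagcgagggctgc
PLOD2, chr3:146161185-146161434: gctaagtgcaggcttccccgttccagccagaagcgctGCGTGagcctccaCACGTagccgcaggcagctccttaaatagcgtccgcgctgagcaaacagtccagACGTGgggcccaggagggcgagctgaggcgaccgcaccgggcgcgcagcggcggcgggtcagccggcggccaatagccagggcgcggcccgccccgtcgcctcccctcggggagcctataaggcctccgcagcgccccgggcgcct
LOX, chr5:122078428-122078457: cgctccctgtgcaACGTGtctggggggagg
LOX, chr5:122078350-122078379: cttgCACGTttccaatcgcattACGTGaac
LOX, chr5:122078285-122078314: tgtaactttgcaaACGTGccagaaagttta

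The window at this LOX start held ACGTG 4 times, that of PLOD2 held ACGTG 2 times and GCGTG once, and that of P4HA1 held ACGTG once. LOX has 3 starts in the table, and the windows of the other starts each held 1 ACGTG and 1 GCGTG. The PLOD1 window held GCGTG 2 times and the P4HB window held it once. No core was found in the windows of P4HA2, PLOD3, LOXL1 and LOXL4, and for P4HA2, PLOD3 and LOXL1 all 250 bases before the RefSeq start lie in GENCODE exons of the gene. A match is a description of the letters and was not tested for binding.

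At 1% O2 with vehicle, 6 of the 10 members rose against vehicle at 20% O2 and 0 fell. Those that rose were P4HA1, P4HA2, PLOD1, PLOD2, LOX and LOXL2. With 32-134D at 1% O2, the 6 fell against vehicle at 1% O2 and 0 members rose, although the call for LOXL2 depended on the fit. Against vehicle at 20% O2, the 32-134D libraries were higher in 3 members, P4HA1, P4HA2 and LOXL2, and lower in 0. A gene was called with an edgeR quasi-likelihood FDR (Benjamini-Hochberg) below 0.05 and a fold change above 1.5. Of all genes tested, 19.5% were called higher and 20.3% lower at 1% O2, 16.2% were called higher and 13.7% lower with 32-134D against vehicle at 1% O2, and 3.0% were called higher and 0.516% lower with 32-134D against vehicle at 20% O2. The median log2 fold change of the members was 1.66 at 1% O2, -1.04 with 32-134D and -0.04 with 32-134D against 20% O2, beside medians of 0.00, -0.01 and -0.00 over all genes tested. The first 2 comparisons share the vehicle libraries at 1% O2. In bulk RNA, fewer cells of a kind and less RNA per cell cannot be told apart.

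**Figure D1:**
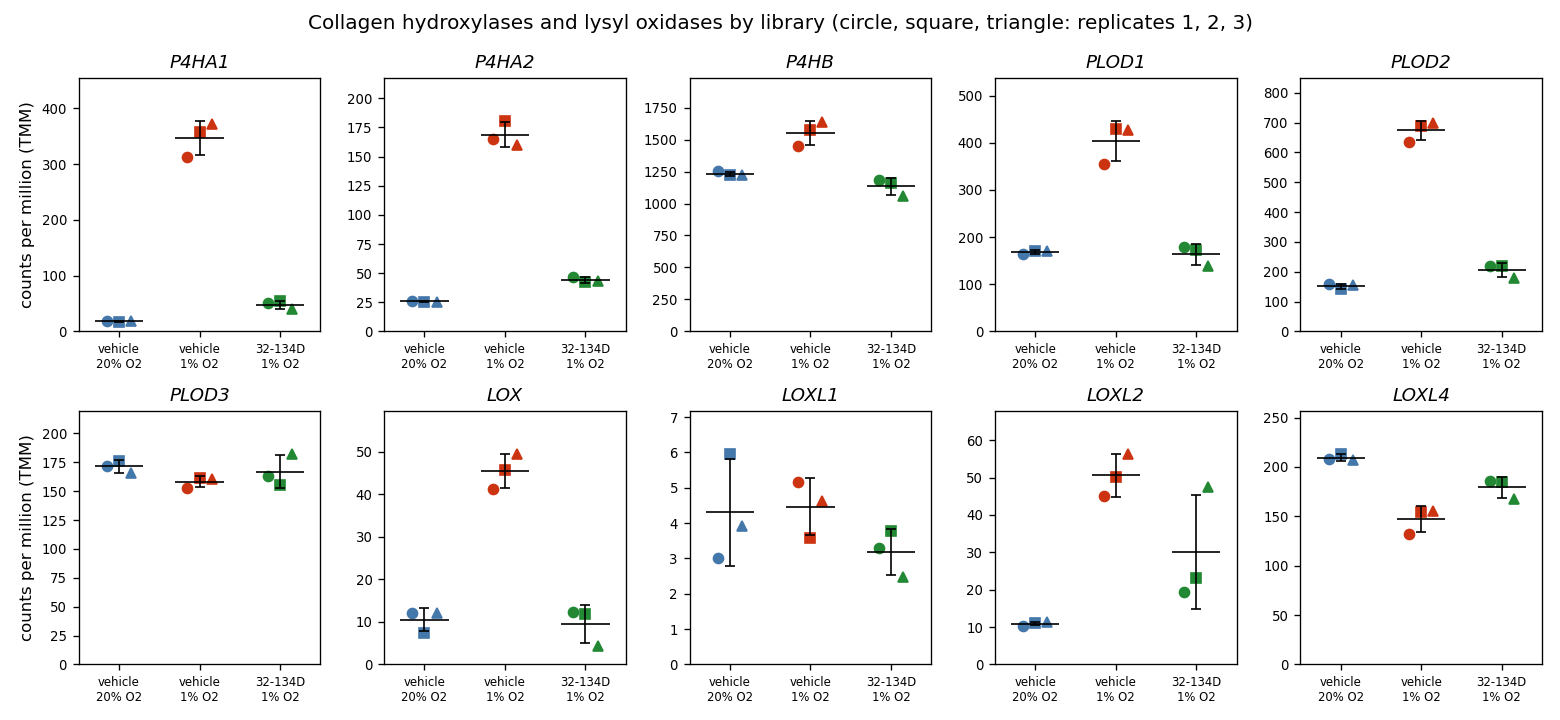
CPM (counts scaled to library size, with TMM factors), on linear axes from 0, for each member in the 9 libraries, with circles, squares and triangles for replicates 1, 2 and 3, and lines and bars for the mean ± SD (n = 3). P4HA1 rose from a mean of 18.1 CPM at 20% O2 to 346.9 CPM at 1% O2, whereas the means of PLOD3 ran from 158 to 171 CPM in the 3 groups.

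Total counts ran from 6013980 to 40549699 per library. All 8 hepatocyte markers listed were above 1 CPM. Their sum was 18272 to 19734 CPM at 20% O2 and 13369 to 16696 CPM with vehicle at 1% O2. With 32-134D it was 18055, 17774 and, in replicate 3, 11734 CPM. At 1% O2, 0 were called higher and 2 lower, APOB and AFP (log2 fold changes -3.47 and -0.69). Of all genes tested, 19.5% were called higher and 20.3% lower at 1% O2, and 16.2% higher and 13.7% lower with 32-134D. With 32-134D, APOB was called higher (3.12), and TF and TTR lower (-0.80 and -0.92), both being lowest in replicate 3. The 10 fibroblast or stellate cell markers include the collagen chains COL1A1, COL1A2 and COL3A1, which had 1245, 188 and 2 counts in all. The 10 markers summed to 26.03 to 26.92 CPM in the vehicle libraries at 1% O2 and 51.7 to 60.3 CPM in the others. POSTN had no count in any library. PDGFRB and PDGFRA had the highest means, 27.2 and 19.2 CPM at 20% O2, beside 6.65 CPM for COL1A1. Both were called lower at 1% O2 (log2 fold changes -1.44 and -1.58) and higher with 32-134D (1.13 and 1.16). Of 6 tested, 4 were called lower and 0 higher at 1% O2, beside 20.3% lower and 19.5% higher of all genes tested. LUM was not called there, and with 32-134D it was called higher against vehicle at 1% O2 and at 20% O2 (1.14 and 1.75). Of 4 endothelial markers, VWF and KDR were at 0, CDH5 had 1 count in all, and PECAM1 had 131 counts, with log2 fold changes of -1.88 at 1% O2 and 1.93 with 32-134D (edgeR, FDR 0.0065 and 0.00362). Of 4 macrophage markers, CD163 was at 0, PTPRC had 7 counts, CD68 had 139 and CSF1R had 265, with a log2 fold change of -0.70 for CSF1R with 32-134D (edgeR, FDR 0.0202). The endothelial list summed to at most 1.28 CPM and the macrophage list to at most 2.22 CPM in any library. The part of these marker levels in the results was not tested. Replicate 3 of 32-134D stood apart from replicates 1 and 2. The chi-square of their counts divided by its degrees of freedom was 40.5 and 36.2, beside 2.08 between replicates 1 and 2. This value rises with the read depth of the pair, which was not equalized. In both vehicle groups replicate 1 stood apart, with lower values. At 20% O2 it gave 6.72 and 13.26 against replicates 2 and 3, beside 1.64 between those. With vehicle at 1% O2 the values were 8.63 and 12.96, beside 2.599. For LOX and LOXL2, the log2 fold change with 32-134D against vehicle at 1% O2 is also given without replicate 3 of 32-134D. For LOXL2 this is also done against 20% O2.

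P4HA1 (ENSG00000122884, chr10:73007217-73096974, minus strand) encodes a catalytic alpha subunit of prolyl 4-hydroxylase. Gene positions are those of GENCODE 29 on GRCh38. Its level was 18.9, 17.0 and 18.3 CPM at 20% O2, 312, 357 and 372 CPM with vehicle at 1% O2, and 50.6, 53.8 and 39.6 CPM with 32-134D. The 3 groups did not overlap, and the vehicle libraries at 1% O2 were the highest. P4HA1 rose 19.1-fold at 1% O2, a log2 fold change of 4.25 ± 0.12 (SE, edgeR, FDR 3.42e-12). With 32-134D it was 7.22-fold lower than with vehicle at 1% O2 (log2 fold change -2.85 ± 0.11, SE, edgeR, FDR 2.62e-10). It remained 2.64-fold above its level at 20% O2 (log2 fold change 1.40 ± 0.11, SE, edgeR, FDR 2.36e-06).

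P4HA2 (ENSG00000072682, chr5:132191838-132295315, minus strand) encodes a second alpha subunit. Its level was 26.5, 25.4 and 25.1 CPM at 20% O2, 165, 181 and 160 CPM with vehicle at 1% O2, and 46.6, 42.4 and 42.8 CPM with 32-134D. As for P4HA1, the 3 groups did not overlap. It rose 6.57-fold at 1% O2 (log2 fold change 2.72 ± 0.08, SE, edgeR, FDR 4.54e-12) and fell 3.84-fold with 32-134D (log2 fold change -1.94 ± 0.08, SE, edgeR, FDR 2.81e-10). It stayed 1.71-fold above its level at 20% O2 (edgeR, FDR 2.09e-05).

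P4HB (ENSG00000185624, chr17:81843159-81860694, minus strand) encodes protein disulfide isomerase, the beta subunit that holds the alpha subunits in the endoplasmic reticulum and also folds many other proteins. Its level was 1252, 1222 and 1222 CPM at 20% O2, 1447, 1575 and 1635 CPM with vehicle at 1% O2, and 1181, 1164 and 1057 CPM with 32-134D. The vehicle libraries at 1% O2 were above all others, but by less than the fold change a call required. The fold was 1.26 at 1% O2 (edgeR, FDR 0.00108) and 1.37 in the other direction with 32-134D (edgeR, FDR 0.000102). The ratio of alpha to beta reads per kilobase of exon was 0.0381 ± 0.00119 (SD, n = 3) at 20% O2, 0.451 ± 0.00975 with vehicle at 1% O2 and 0.0965 ± 0.00638 with 32-134D.

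Within the alpha subunits, the share of reads per kilobase from P4HA1 was 65.9% ± 1.05 (SD, n = 3) at 20% O2, 84.9% ± 1.37 with vehicle at 1% O2 and 74.8% ± 2.98 with 32-134D. Neither this share nor the ratio overlapped between any 2 groups, and each difference had an exact permutation p of 0.1 (two-sided), the smallest that 3 libraries against 3 can give. Which alpha subunit was higher at 20% O2 depended on the exon length. The P4HA2 exons span 8502 bases and those of P4HA1 3093 bases, and before division by length P4HA2 had more reads at 20% O2, 25.7 against 18.1 CPM. Divided instead by the longest transcript, 2844 bases for P4HA1 and 3349 for P4HA2, the P4HA1 share at 20% O2 was 44.0% to 46.2%. By that length the alpha to beta ratio with vehicle at 1% O2 was 0.284 to 0.297.

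**Figure D2:**
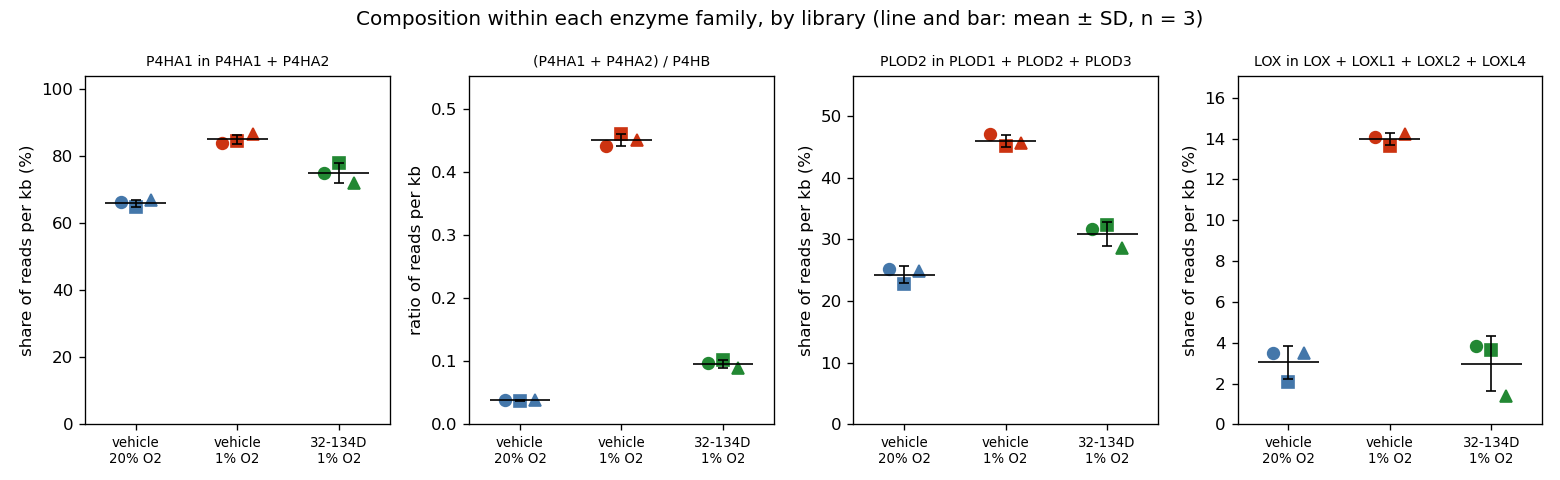
Share of P4HA1 among alpha subunit reads per kilobase, ratio of alpha to beta subunit reads per kilobase, share of PLOD2 among PLOD reads and share of LOX among lysyl oxidase reads, by library, with symbols for the replicates and lines and bars for the mean ± SD (n = 3). The alpha to beta ratio was 0.0381 at 20% O2 and 0.451 with vehicle at 1% O2, and the LOX share lay between 13.7% and 14.2% in the vehicle libraries at 1% O2 and at most at 3.86% in the others.

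PLOD1 (ENSG00000083444, chr1:11934205-11975538, plus strand) encodes lysyl hydroxylase 1, which modifies lysines in the helix. Its level was 164, 171 and 171 CPM at 20% O2, 354, 430 and 427 CPM with vehicle at 1% O2, and 179, 173 and 138 CPM with 32-134D. The vehicle libraries at 1% O2 were above all others, and the 32-134D libraries overlapped those at 20% O2. PLOD1 rose 2.39-fold at 1% O2 (log2 fold change 1.26 ± 0.10, SE, edgeR, FDR 7.49e-08) and fell 2.47-fold with 32-134D (log2 fold change -1.31 ± 0.10, SE, edgeR, FDR 1.21e-07). With 32-134D its log2 fold change against 20% O2 was -0.05 ± 0.10 (SE, edgeR, FDR 0.828).

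PLOD2 (ENSG00000152952, chr3:146069440-146163653, minus strand) encodes lysyl hydroxylase 2, which modifies lysines in the telopeptides at the chain ends. Its level was 158, 142 and 156 CPM at 20% O2, 636, 688 and 697 CPM with vehicle at 1% O2, and 221, 219 and 178 CPM with 32-134D. The 3 groups did not overlap. It rose 4.43-fold at 1% O2 (log2 fold change 2.15 ± 0.09, SE, edgeR, FDR 1.27e-10) and fell 3.27-fold with 32-134D (log2 fold change -1.71 ± 0.09, SE, edgeR, FDR 3.17e-09). Against 20% O2 the 32-134D libraries were 1.35-fold higher (edgeR, FDR 0.00532), which is under the fold change a call required.

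PLOD3 (ENSG00000106397, chr7:101205977-101218420, minus strand) encodes lysyl hydroxylase 3, which also glycosylates hydroxylysine. Its level was 172, 176 and 166 CPM at 20% O2, 153, 161 and 161 CPM with vehicle at 1% O2, and 163, 155 and 183 CPM with 32-134D. It was the only lysyl hydroxylase with no call, and its log2 fold change at 1% O2 was -0.11 ± 0.07 (SE, edgeR, FDR 0.215). With 32-134D it was 0.07 ± 0.07 (SE, edgeR, FDR 0.435). Its exons overlap by 429 bases those of ZNHIT1 on the other strand, which had 38.6% as many counts, and the strand setting of the counting is not given in the sources used here.

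The share of PLOD2 in the lysyl hydroxylase reads per kilobase was 24.3% ± 1.37 (SD, n = 3) at 20% O2, 45.9% ± 0.999 with vehicle at 1% O2 and 30.9% ± 1.99 with 32-134D. No 2 groups overlapped, with an exact permutation p of 0.1 (two-sided) for each difference. PLOD3 made up 36.9%, 14.6% and 34.0% of these reads in the same order, and PLOD1 38.8%, 39.5% and 35.1%. The sum of the family was 81.8 CPM per kilobase at 20% O2, 192.0 with vehicle at 1% O2 and 87.0 with 32-134D.

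LOX (ENSG00000113083, chr5:122063195-122078360, minus strand) encodes lysyl oxidase. Its level was 12.05, 7.38 and 12.04 CPM at 20% O2, 41.2, 45.7 and 49.4 CPM with vehicle at 1% O2, and 12.3, 11.7 and 4.34 CPM with 32-134D. The vehicle libraries at 1% O2 were above all others, and replicate 3 of 32-134D was the lowest of the 9. LOX rose 4.15-fold at 1% O2 (log2 fold change 2.05 ± 0.27, SE, edgeR, FDR 1.1e-05) and fell 4.71-fold with 32-134D (log2 fold change -2.24 ± 0.26, SE, edgeR, FDR 5.23e-06). Without replicate 3 of 32-134D the latter log2 fold change was -1.92. LOX exons overlap those of SRFBP1 on the other strand by 138 bases, and SRFBP1 had 52.2% as many counts as LOX over the 9 libraries.

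LOXL2 (ENSG00000134013, chr8:23297189-23425328, minus strand) encodes a lysyl oxidase-like enzyme with scavenger receptor domains. Its level was 10.4, 10.99 and 11.3 CPM at 20% O2 and 45.0, 50.3 and 56.4 CPM with vehicle at 1% O2. With 32-134D it was 19.5, 23.1 and 47.5 CPM, so that replicate 3 overlapped the vehicle libraries at 1% O2 while the other replicates lay between the groups. In that library LOXL2 was highest and LOX lowest among the 32-134D libraries. LOXL2 rose 4.61-fold at 1% O2 (log2 fold change 2.21 ± 0.26, SE, edgeR, FDR 4.16e-06).

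With 32-134D, LOXL2 was 1.70-fold lower than with vehicle at 1% O2 (log2 fold change -0.76 ± 0.23, SE, edgeR, FDR 0.0136). This call was lost with DESeq2 (FDR 0.1), with a robust quasi-likelihood fit added after seeing the data (edgeR, FDR 0.105) and without replicate 3 of vehicle at 1% O2 or replicate 1 or 2 of 32-134D (edgeR, FDR 0.0852, 0.0739 and 0.0566). Without replicate 3 of 32-134D the log2 fold change was -1.25. Against 20% O2, LOXL2 was 2.72-fold higher with 32-134D (edgeR, FDR 0.00265), and the robust fit gave an FDR of 0.0615 in edgeR. This log2 fold change was 1.44 with all libraries and 0.95 without replicate 3 of 32-134D. LOXL2 exons overlap 120 bases of ENTPD4 on the same strand, and ENTPD4 had 95.4% as many counts as LOXL2.

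LOXL4 (ENSG00000138131, chr10:98247690-98268250, minus strand) encodes the most abundant lysyl oxidase transcript per kilobase in these cells. Its level was 208, 214 and 207 CPM at 20% O2, 132, 154 and 155 CPM with vehicle at 1% O2, and 186, 185 and 167 CPM with 32-134D. The vehicle libraries at 1% O2 were below all others. The fold was 1.42 lower at 1% O2 (log2 fold change -0.51 ± 0.08, SE, edgeR, FDR 5.71e-05), under the fold change a call required, and 1.22 higher with 32-134D (edgeR, FDR 0.00688). LOXL4 was called lower at 1% O2 under upper quartile scaling and under scaling by total counts.

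LOXL1 (ENSG00000129038, chr15:73925989-73952137, plus strand) encodes an enzyme that acts on elastin. It had the fewest reads, 3.01 to 5.97 CPM at 20% O2, 3.58 to 5.17 CPM with vehicle at 1% O2 and 2.47 to 3.77 CPM with 32-134D, and all groups overlapped. Its log2 fold change was 0.14 ± 0.24 at 1% O2 (SE, edgeR, FDR 0.636) and -0.49 ± 0.22 with 32-134D (SE, edgeR, FDR 0.0857). The sign at 1% O2 turned under upper quartile scaling and under scaling by total counts. Its exons overlap LOXL1-AS1, whose counts came to 27.5% of those of LOXL1.

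The summed level of the 4 lysyl oxidases was 62.3 CPM per kilobase at 20% O2, 58.6 with vehicle at 1% O2 and 56.9 with 32-134D, while its make-up differed. LOX made up 3.04% ± 0.818 (SD, n = 3), 14.0% ± 0.294 and 2.97% ± 1.36 of it in the same order, LOXL2 made up 3.07% ± 0.134, 15.1% ± 0.613 and 9.31% ± 4.95, and LOXL4 92.0%, 68.8% and 86.2%. The LOX share with vehicle at 1% O2 did not overlap either other group (exact permutation p of 0.1, two-sided, for each). Between 32-134D and 20% O2 it overlapped, with an exact permutation p of 1.0.

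**Figure D3:**
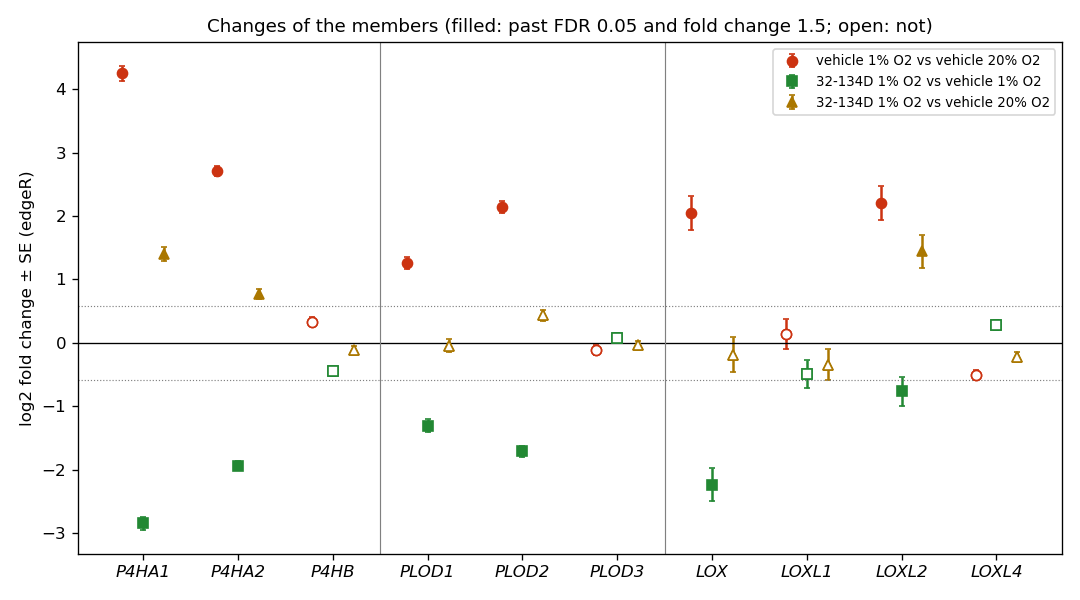
Log2 fold change ± SE (edgeR) of each member in the 3 comparisons, with filled symbols for calls and open symbols for the rest, and dotted lines at the fold change of 1.5. The 6 members called higher at 1% O2 have log2 fold changes from 1.26 to 4.25, and against 20% O2 the 32-134D values of P4HA1, P4HA2 and LOXL2 are filled.

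Per kilobase of exon, P4HB was the highest member in every group, at 232 CPM per kilobase at 20% O2, 293 with vehicle at 1% O2 and 214 with 32-134D. At 20% O2 it was followed by LOXL4 at 57.3, PLOD1 at 31.7, PLOD3 at 30.2 and PLOD2 at 19.9 CPM per kilobase. P4HA1 at 5.84, P4HA2 at 3.02, LOXL2 at 1.91, LOX at 1.89 and LOXL1 at 1.18 CPM per kilobase came last. The libraries overlapped between PLOD1 and PLOD3 and between adjacent places among the last 3, whereas those of LOXL2 and LOXL1 did not overlap. With vehicle at 1% O2, P4HA1 moved from the sixth place to the second, at 112 CPM per kilobase, ahead of PLOD2 at 88.1, PLOD1 at 75.9 and LOXL4 at 40.3. With 32-134D, LOXL4 was second again at 49.1 CPM per kilobase, and PLOD1, PLOD3 and PLOD2, at 30.7, 29.4 and 26.9, overlapped in adjacent places. These places depended on the exon length. The longest transcripts span 2844 bases for P4HA1, 2940 for PLOD1, 3835 for PLOD2, 2920 for PLOD3 and 3653 for LOXL4. Divided by those, the mean of P4HA1 with vehicle at 1% O2 came after PLOD2 and PLOD1. That of LOXL4 with 32-134D came after PLOD1, PLOD2 and PLOD3.

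Among 11517 other genes, the gene nearest to each called member in its log2 CPM over the 9 libraries, after centring, was EFNA1 for P4HA1, FAM210A for P4HA2, TM4SF4 for PLOD1, CPOX for PLOD2, RASSF5 for LOX and MAFF for LOXL2. The root mean square difference was 0.113, 0.102, 0.0748, 0.0681, 0.162 and 0.148 log2 units in that order. This is a description of these libraries, all 9 of which entered it.

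The other genes of collagen modification, export and processing went in both directions. Of 35 listed, 33 were tested, and at 1% O2 4 rose and 8 fell, with a median log2 fold change of 0.10. With 32-134D 6 rose and 3 fell, with a median of 0.04, and against 20% O2 0 were called. Of all genes tested, 19.5% were called higher and 20.3% lower at 1% O2, and 16.2% higher and 13.7% lower with 32-134D. Against 20% O2 these shares were 3.0% and 0.516%. The count of 4 became 1 without replicate 1 of vehicle at 20% O2 and 2 without replicate 1 of 32-134D, and it was 2 with DESeq2.

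The prolyl 3-hydroxylases, which modify a few further prolines, went in both directions. P3H2 rose from 10.0 ± 0.703 CPM (SD, n = 3) at 20% O2 to 29.8 ± 1.16 with vehicle at 1% O2, and was at 12.8 ± 2.27 with 32-134D (log2 fold changes 1.55 and -1.21, edgeR, FDR 9.75e-08 and 1.13e-06). P3H1 fell from 45.5 ± 0.804 CPM to 22.7 ± 1.11 and was at 37.2 ± 1.36 with 32-134D (log2 fold changes -1.003 and 0.71, edgeR, FDR 6.1e-08 and 3.16e-06). P3H4, a partner of this group, fell at 1% O2 with a log2 fold change of -0.73. P3H3 was called higher at 1% O2 at 1.50-fold, just past the threshold. SERPINH1, the collagen chaperone HSP47, went from 282 to 433 CPM, a call close to the threshold at 1.53-fold (edgeR, FDR 9.41e-06). PCOLCE, which enhances removal of the procollagen propeptide, rose with a log2 fold change of 0.72 at 1% O2 and fell with -0.98 under 32-134D.

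Among the suppliers of cofactors, both ascorbate transporters tested and 1 of 5 genes of copper supply fell at 1% O2 and 0 rose. Of all genes tested, 20.3% were called lower. SLC23A1, 1 of the transporters and named after its values were seen, had few reads. It had 168 counts in all and at most 9 in any vehicle library at 1% O2. SLC23A2, an ascorbate transporter, fell from 47.5 ± 6.76 CPM (SD, n = 3) to 23.0 ± 1.12 and was at 49.5 ± 8.22 with 32-134D (log2 fold changes -1.05 and 1.10, edgeR, FDR 3.87e-06 and 3.44e-06). ATP7B, a copper transporter, fell with a log2 fold change of -1.16 at 1% O2 and rose with 0.83 under 32-134D. SLC31A2, linked to copper uptake, was called lower with 32-134D at 1.50-fold, just past the threshold, and at 1% O2 it was 1.33-fold higher (edgeR, FDR 0.0444), which is under it. SLC31A1, the main copper importer, named after its values were seen, was 1.40-fold higher at 1% O2 (edgeR, FDR 0.000142), also under the threshold and without overlap between the groups. The paralogs outside the members had few reads, with 77 counts in all for P4HA3 and 530 for LOXL3, and neither was called.

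**Figure D4:**
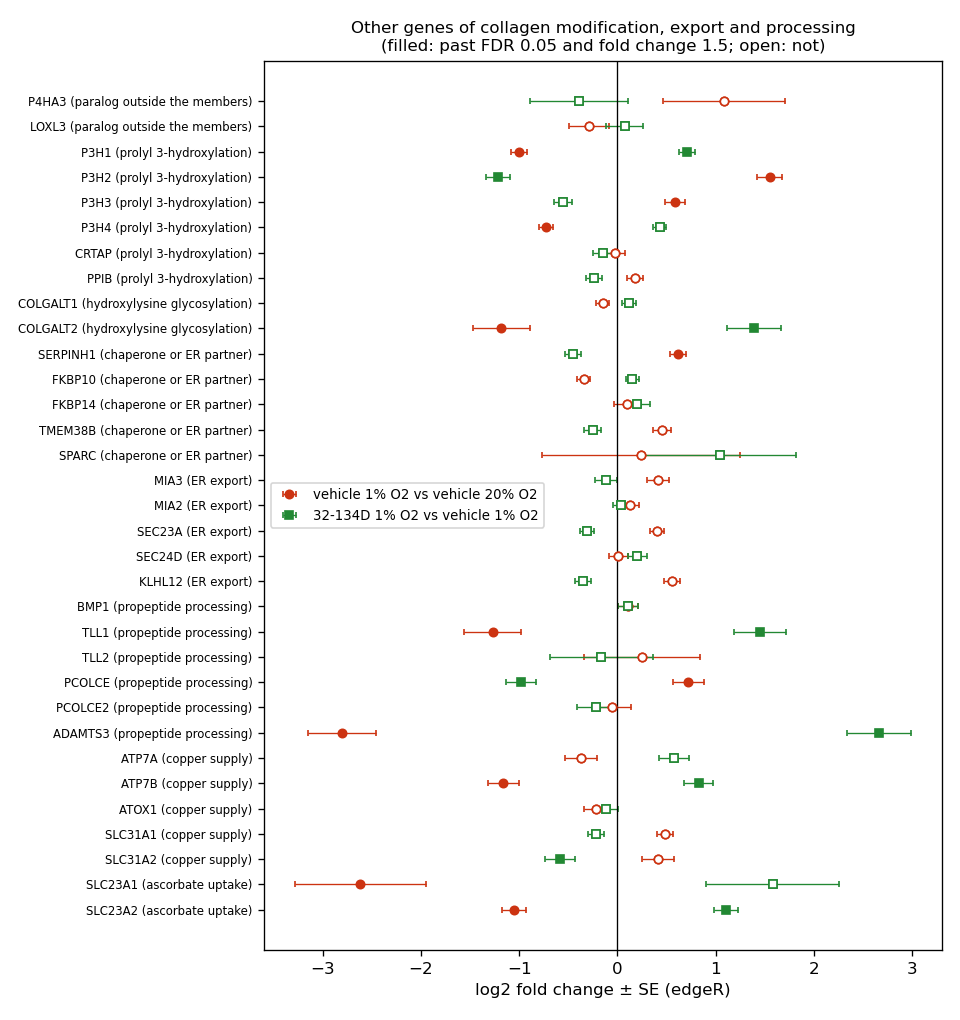
Log2 fold change ± SE (edgeR) of the 33 tested genes of collagen modification, export and processing, for vehicle at 1% O2 against 20% O2 (circles) and for 32-134D against vehicle at 1% O2 (squares), filled where called. At 1% O2, 4 are filled above 0 and 8 below it, beside 19.5% higher and 20.3% lower of all genes tested.

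The collagen chains that these enzymes modify were mostly lower at 1% O2. Of 12 chains and elastin listed, 9 were tested, 6 fell and 2 rose, beside 20.3% lower and 19.5% higher of all genes tested. With 32-134D 6 rose and 2 fell, beside 16.2% higher and 13.7% lower of all genes tested. The most abundant per kilobase were COL18A1, COL2A1 and COL5A2, with log2 fold changes of -1.84, -1.55 and -1.50 at 1% O2 and 1.45, 1.15 and 1.14 with 32-134D. The 2 that rose at 1% O2 were COL6A1 and COL6A2, named after their values were seen. Their log2 fold changes were 1.08 and 1.71 at 1% O2 and -1.47 and -1.54 with 32-134D. COL6A2 had 279 counts in all. Among the related HIF prolyl hydroxylases, which mark HIF subunits for destruction, the log2 fold changes at 1% O2 and with 32-134D were 2.48 and -1.78 for EGLN1, -1.04 and 0.72 for EGLN2, and 0.70 and -1.02 for EGLN3, while P4HTM had 22 counts in all.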

How the data were processed

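The data are 9 RNA-seq libraries from Hep3B cultures, 3 per group. The authors deposited raw read counts per Ensembl gene without normalization. Per the labels and methods they used FastQC, MultiQC, Bbduk, STAR, featureCounts and DESeq2 with GRCh38, and versions and the strand setting are not given in the sources used here. All 9 columns matched a sample and 0 were left unmapped.

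The genes whose counts reached a sum of 10 over the libraries entered 1 edgeR 4.0.16 quasi-likelihood fit (R 4.3.3, TMM scaling, FDR by Benjamini-Hochberg, biological coefficient of variation 10.5%). CPM are TMM-scaled. Exon lengths were unions of GENCODE 29 exons, an annotation other than the Ensembl release that the methods name for the counts. Shares were compared with exact two-sided permutation tests. On simulated counts with 200 changed genes, edgeR recovered 91.5% (hypoxia, 22132 genes, 6.63% of calls false) and 92.5% (32-134D, 22125 genes, 7.50% false). The false share was above the FDR threshold of 0.05 in both. Far fewer genes changed in the simulation than were called in the data, equally in both directions and only among genes with enough reads. Its counts were drawn with the dispersions fitted to these data, so it cannot show how well the fit describes them. Alternatives were DESeq2 1.42.0, other scalings, filters and thresholds, fits of 2 groups, thinning, leaving out each library and a replicate block. A robust fit was added after seeing the data.

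The members and lists were chosen with earlier results of these data known. Named genes were all members, called partners whose mean normalized count reached 100 in their highest group, P4HA3, LOXL3, the 3 most abundant collagen chains, the HIF prolyl hydroxylases, overlapping genes and the nearest gene to each called member. Few reads limit LOXL1, LOX and P4HA3.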

Additional observations from a re-analysis of the deposited data

How the results depend on the processing

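Of the member log2 fold changes under the alternatives, 602 kept their direction and their side of the thresholds, 9 turned, 9 became calls and 10 lost theirs. The counts of members stayed at 6 higher at 1% O2 and 3 higher against 20% O2 when any library was left out, and the count lower with 32-134D ran from 5 to 6.

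Scaling by total counts moved the median log2 fold change of all genes to -0.21 at 1% O2 and 0.17 with 32-134D, and upper quartile scaling to -0.19 and 0.11. The share of calls that were higher went from 49.0% to 34.5% and 35.7% at 1% O2, from 54.2% to 72.0% and 66.1% with 32-134D, and from 85.3% to 80.2% and 68.4% against 20% O2. Members lower at 1% O2 became 1 (LOXL4) under both scalings, with at least 10 counts in every library, with no fold change threshold and after thinning. With no fold change threshold 1 member was higher with 32-134D. LOXL1 at 1% O2 had a log2 fold change of -0.0483 with upper quartile scaling, -0.0659 with total counts and -0.22 after thinning, and from -0.0942 to 0.35 when each library was left out. Leaving out libraries gave ranges against 20% O2 of -0.11 to 0.0577 for PLOD1, -0.11 to 0.0193 for PLOD3 and -0.40 to 0.10 for LOX, and of -0.542 to 0.713 percentage points for the LOX share. The cause of these turns was not tested.

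LOXL2 with 32-134D also lost its call with total counts (edgeR, FDR 0.0524), with only the 2 groups fitted (edgeR, FDR 0.0703) and at a fold change above 2. With no low-count filter edgeR gave it an FDR of 1e-12, but there the fit set an infinite prior degrees of freedom, so its own spread was not used (quasi-dispersion 0.709 against 3.56). The FDRs under that setting are not read as support for any gene. Without replicate 3 of 32-134D the prior degrees of freedom rose from 8.26 to 22.7.

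Partner genes higher at 1% O2, 4 in the report, numbered 2 with DESeq2, RLE size factors or at least 10 counts in every library, 1 with upper quartile scaling, total counts, thinning or a fold change above 2, and 10 with no fold change threshold, and 1 to 5 when libraries were left out. Those lower numbered 5 with at least 10 counts in every library. Partners lower with 32-134D numbered 10 with no fold change threshold and 1 at a fold change above 2. Against 20% O2, 1 partner was lower with no low-count filter, and 1 was higher and 2 lower with no fold change threshold.

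Between samples of the same replicate number, correlations of deviations from the group means ran from -0.03 to 0.01 over all genes tested. Counting noise weakens such correlations, so they cannot exclude a batch shared by replicate number, which the labels do not state. With a replicate block 6 members were higher at 1% O2, 6 lower with 32-134D and 3 higher against 20% O2, with LOXL2 at -0.83 under 32-134D.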
